A study of Mus musculus with 2 samples.

Results

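CTCF, a zinc-finger protein that binds a long DNA motif and sits at boundaries of chromatin domains, was located by ChIP-seq (chromatin immunoprecipitation followed by sequencing) at 10 imprinted genes in newborn mouse intestine. The genes were Plagl1, Grb10, Igf2r, Airn, Peg13, Rasgrf1, Peg3, Mest, Peg10 and Gnas, each known for lying in a domain with an imprinting control region. They are 10 of the 53843 genes that GENCODE M21 annotates on chromosomes 1 to 19 and X of the mouse assembly mm10. A peak was assigned to a gene when its summit, the base of highest enrichment, lay in the gene body or within 20 kb of any of the gene's transcription start sites (TSSs). The list that the authors call optimal held 73465 peaks that passed a threshold on the irreproducible discovery rate (IDR). The IDR compares peak ranks between sets of reads, and which sets were compared for this list was not given. Of the 73465 peaks, 53 had a summit in the windows of the 10 genes. The tissue was whole intestine of B6NCrl mice on postnatal day 0, pulverized and pooled over several dissections, with the sex not recorded. There was 1 group with 2 biological replicates, no other genotype or treatment, and no difference between conditions to test. The labels give both libraries the same biosample and donor, so the spread between them may be technical. Whole intestine holds many cell types, and the peak lists separate neither cells nor parental alleles: a low signal from few bound cells, from binding on 1 of the alleles or from weak binding cannot be told apart.

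Genomic imprinting is the expression of a gene from only the maternal or only the paternal chromosome. It depends on control regions that carry DNA methylation from either the egg or the sperm, often over the promoter of a paternally expressed transcript. CTCF is known as a reader of such regions, because methylation of CpG dinucleotides within its site can block binding, and at the H19 and Igf2 domain it binds only the unmethylated maternal chromosome.

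All 10 genes had at least 1 optimal summit in their window. Under the same rule 68.1% of all annotated genes and 82.3% of protein-coding genes had a summit, so finding 10 of 10 lies near the background for genes of this size. The windows of Grb10, Igf2r, Airn, Rasgrf1 and Gnas were between 100 and 150 kb long, and among protein-coding genes with windows of that length 96.4% had a summit. Those of Peg13 and Peg10 were shorter than 42 kb, a class in which 71.9% did. The number of summits per gene was 10 at Airn and at Gnas, 8 at Grb10 and at Igf2r, 5 at Rasgrf1, 4 at Plagl1 and at Peg3, 3 at Peg13, and 2 at Mest and at Peg10. These make 56 pairs of a gene and a summit, since 3 summits lay in the overlapping windows of Igf2r and Airn. The windows covered 838.0 kb without overlap and held 6.32 summits per 100 kb, against a median of 5.0 per 100 kb in the windows of protein-coding genes and 2.87 per 100 kb of sequenced genome. The 6.32 is a rate over the merged windows, whereas the 5.0 is a median of rates of single genes, so the 2 are unlike measures.

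Within that list the genes differed widely in how strong their peaks were. Signal here means the enrichment that the authors' peak caller wrote beside each peak, in units whose normalization is not stated. The strongest optimal summit had a signal of 520.5 at Plagl1, 445.0 at Airn, 440.1 at Grb10, 337.5 at Gnas and 257.8 at Mest. It was 210.7 at Peg13, 173.0 at Igf2r, 171.2 at Peg10, 127.2 at Peg3 and 73.72 at Rasgrf1. The median of these 10 values was 234.2, against 328.2 for the strongest summit of the protein-coding genes that had one, and 4 of the 10 lay above that median. Only 7.89% of the bound protein-coding genes had a strongest summit at least as strong as that of Plagl1, whereas 88.4% reached that of Rasgrf1. These maxima were not matched for window length or number of summits, and Airn and Peg13 are noncoding. Over all 53 summits the median signal was 64.5, with a range of 23.2 to 520.5, while the 73465 optimal peaks had a median of 76.0 and a range of 4.48 to 756. Of the 53, 23 (43.4%) ranked above the median of the optimal list and 3 (5.66%) among its strongest 10%.

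**Figure D1:**
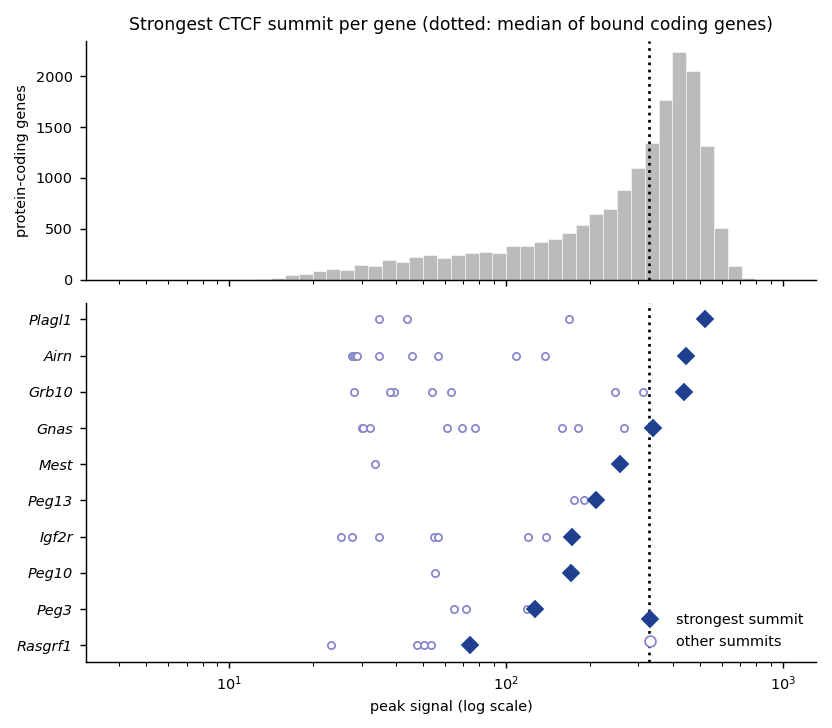
Each row shows the optimal CTCF summits of 1 imprinted gene by peak signal (log scale, authors' units), with the strongest as a diamond and the others as open circles; the histogram above counts protein-coding genes by their strongest summit, and the dotted line is their median of 328.2. Plagl1, Airn, Grb10 and Gnas have their diamond right of the line, and the other 6 genes left of it.

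A match to the CTCF motif lay at the strongest summit of 8 of the 10 genes, against 72.4% of all optimal summits and 85.7% of those above the median signal, so the count is near the background. The CTCF motif was searched on both strands within 100 bases of each summit with a matrix trained on peaks outside these windows, and a score of at least 9.32 counted as a match. The 8 sites are given 5′ to 3′ on the strand of the motif, with the 19 motif bases in capitals and 5 bases of mm10 sequence on each side in lower case; the coordinates are those of the capitals. They are shown because they mark the position with the most CTCF signal at each gene.
Plagl1, intron, chr10:13087394-13087412, plus strand: ctcaaAGGCCACTAGAGGGTGCACgtgat
Airn, intron, chr17:12810659-12810677, minus strand: aggttATACCACAAGGGGGCACTAttgct
Grb10, intron, chr11:11973603-11973621, minus strand: agggaCTGCCACCAGGGGTCGGCAcagcc
Gnas, intron, chr2:174312307-174312325, plus strand: gggccTACCCACCAGAGGTCAGCAaagag
Peg13, exon, chr15:72810083-72810101, minus strand: gttccTACCCGGTAGAGGGCGCCGcagaa
Igf2r, intron, chr17:12714361-12714379, plus strand: cctctGAGGCACCAGAGGGCACCActagc
Peg3, intron, chr7:6727401-6727419, minus strand: tttgtTGGCCACAAGGGGGCATCTggtat
Rasgrf1, intron, chr9:89973962-89973980, minus strand: agtacTGTCCAGGAGATGGTGCCAtttaa
Most of these sites lack a CpG, the dinucleotide that carries DNA methylation. The exceptions were the Grb10 site, with 1 CpG, and the Peg13 site, with 3. Among motif sites at all optimal summits 36.5% held a CpG, so most sites in the whole list lack one too. At Mest and Peg10 no window of 19 bases near the strongest summit reached the threshold.

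Plagl1 encodes a zinc-finger transcription factor and is expressed from the paternal chromosome. Its strongest summit, at position 13087414 of chromosome 10, had a signal of 265.4 in replicate 1 and 257.4 in replicate 2, and 1.45% of all optimal peaks were as strong. It lay in an intron at -3.277 kb from the nearest of the gene's 11 TSSs, where a negative distance means upstream. None of the 4 Plagl1 summits lay within 1 kb of a Plagl1 TSS, and none was CpG-rich (at least 50% GC and at least 0.6 of the CpGs that base composition predicts, over 501 bases). The summit nearest to a TSS, 1.058 kb downstream of the one at 13116364, had a signal of 17.64 in replicate 1 and 16.12 in replicate 2 and no motif. A summit in the coding sequence, 67.015 kb from the most upstream TSS, had a signal of 87.93 in replicate 1 and 80.02 in replicate 2. Its motif pointed to the minus strand, while the other 2 motifs of the gene were on the plus strand.

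Peg3 encodes a zinc-finger protein of placenta and brain, and the control region over its promoter is known for sites of another factor, YY1. Of its 4 summits, all within 3.023 kb of the most upstream TSS, the one at the promoter itself was the weakest. That summit, 0.074 kb downstream of the TSS at 6730419 of chromosome 7, in the 5' untranslated region and near the start of the divergent neighbour Usp29, had a signal of 31.23 in replicate 1 and 33.69 in replicate 2. It was CpG-rich and held no CTCF motif. The other 3 summits lay in an intron 1.137 to 3.011 kb from that TSS, and each held a motif. The strongest had a signal of 59.5 in replicate 1 and 71.17 in replicate 2. The strongest Peg3 peak was reached by 80.6% of bound protein-coding genes.

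Mest encodes a protein of the alpha/beta hydrolase family and is expressed from the paternal chromosome. It had 2 summits, both within 1 kb of a Mest TSS and neither with a motif. The stronger, at -0.924 kb from the TSS at 30738050 of chromosome 6, had a signal of 140.8 in replicate 1 and 120.1 in replicate 2. The weaker, in a CpG-rich stretch of coding sequence 0.261 kb from the TSS at 30738055, had a signal of 7.92 in replicate 1 and 23.35 in replicate 2. Its rank was 86870 in replicate 1 and 48086 in replicate 2, so it stood among the strongest 73465 peaks in replicate 2 but not in replicate 1. No summit of the conservative IDR list lay on the same base, though that list held 3 summits in the Mest window. Whether 1 of them is the same peak, shifted by some bases, was not tested.

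Peg10, a gene derived from a retrotransposon and needed in the placenta, shares a bidirectional promoter with Sgce. The stronger of its 2 summits lay at that shared promoter, at -0.127 kb from the Peg10 TSS and in the 5' untranslated region of Sgce. It was CpG-rich and had a signal of 95.19 in replicate 1 and 76.34 in replicate 2. The other lay in an intron 2.033 kb downstream of the TSS at 4747406 of chromosome 6, with a signal of 21.79 in replicate 1 and 34.04 in replicate 2. Neither held a motif, and Peg10 and Mest were the only 2 of the 10 genes without a motif at any summit.

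Peg13 is a paternally expressed noncoding RNA of 4.725 kb that lies within an intron of Trappc9, a gene for a vesicle trafficking protein. It was the gene whose summits were most evenly strong: the 3 optimal signals were 175.5, 191.1 and 210.7, all above the median of the list, and all lay within 1.134 kb of its only TSS. At the TSS itself, at -0.012 kb, the signal was 72.14 in replicate 1 and 106.3 in replicate 2. At 0.195 kb downstream it was 90.39 in replicate 1 and 126.1 in replicate 2, and at 1.134 kb it was 101.9 in replicate 1 and 87.06 in replicate 2. The summit at 1.134 kb was thus the strongest of the 3 in replicate 1 and the weakest in replicate 2, so the replicates do not fix their order. The 2 promoter summits each held a motif on the minus strand, the strand of Peg13. Their sites started 284 bases apart and shared 15 of 19 motif bases, and the second site is shown beside the first for that likeness, chosen after its values were seen.
Peg13, exon, chr15:72810083-72810101, minus strand: gttccTACCCGGTAGAGGGCGCCGcagaa
Peg13, upstream of the TSS, chr15:72810367-72810385, minus strand: attctTACCCGCTAGATGGCACCAcagaa
The first of these sites had 3 CpGs and the second 1. The stretch around the first was CpG-rich, with 58.5% GC and 0.703 of the predicted CpGs, while that around the second fell short of the CpG criterion at 0.561.

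**Figure D2:**
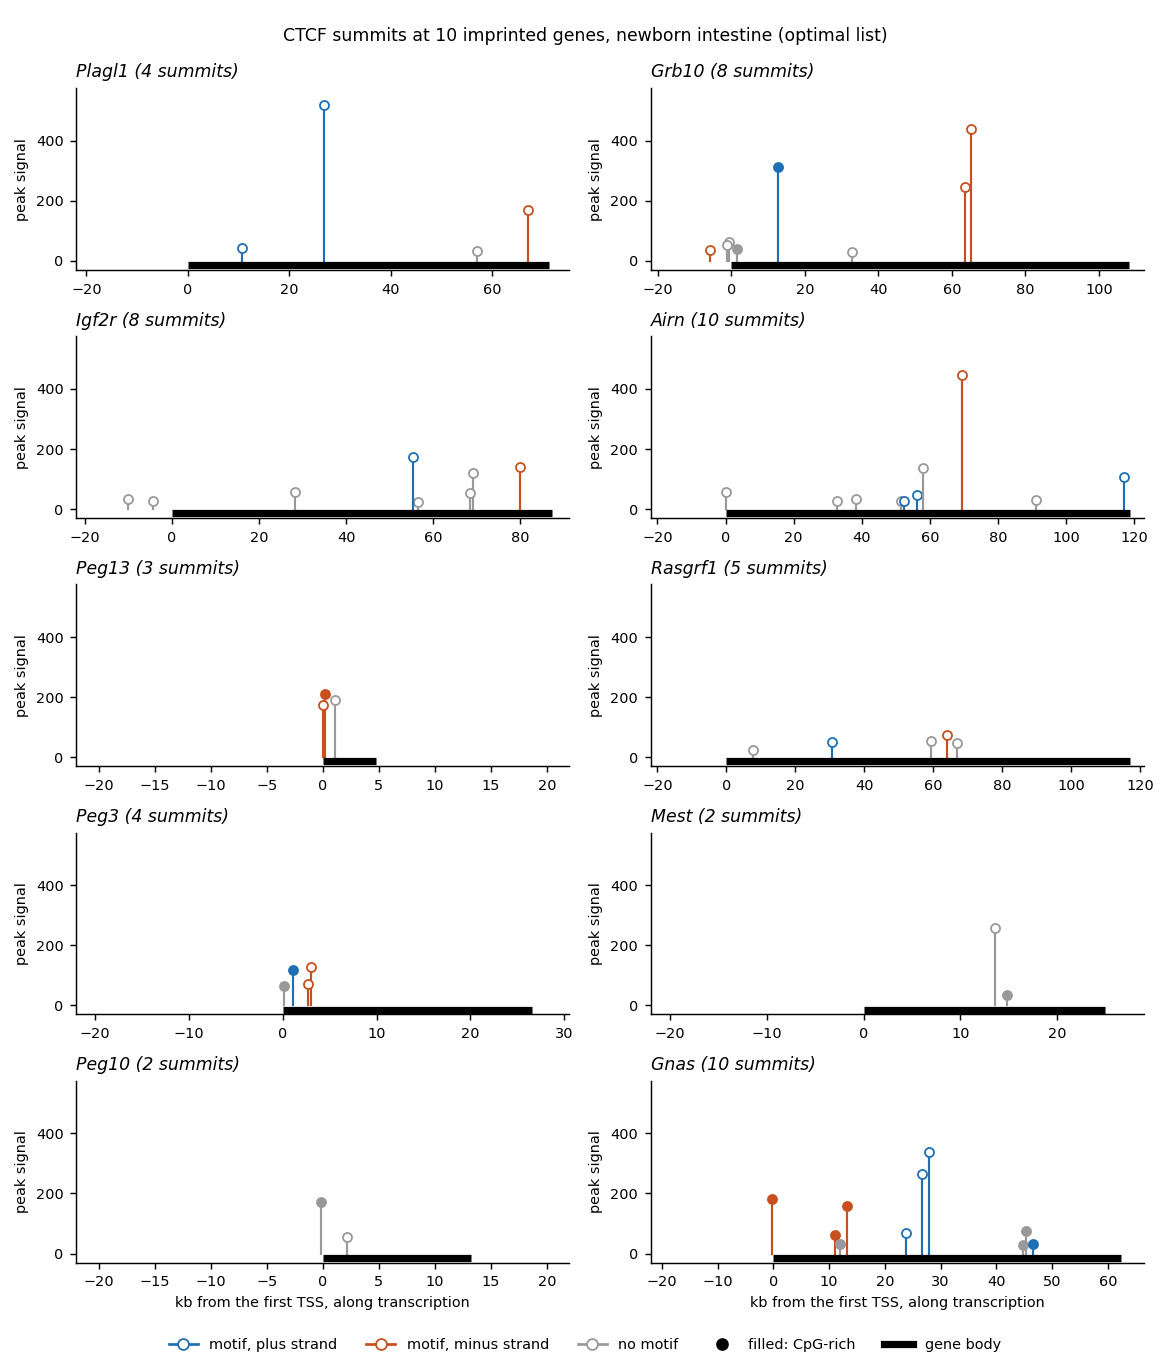
Optimal CTCF summits of each gene by distance in kb from its most upstream TSS, in the direction of transcription, against peak signal (authors' units, linear axis from 0); colour gives the genome strand of the motif, filled symbols are CpG-rich and the black bar is the gene body. On this axis all summits of Peg13, Peg3 and Peg10 stand within 3.023 kb of the most upstream TSS. Those of Mest stand at 13.579 and 14.769 kb, each within 1 kb of a downstream Mest TSS. The tallest of Plagl1, Grb10, Igf2r, Airn, Rasgrf1 and Gnas stand at 26.91 kb or more. From the nearest TSS, however, the tallest of Plagl1 and Grb10 are at -3.277 and -2.94 kb.

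Igf2r, the receptor that takes up and clears the growth factor IGF2, is expressed from the maternal chromosome. Airn is the long noncoding RNA transcribed across it in the antisense direction from a promoter in an Igf2r intron on the paternal chromosome, and its transcription silences Igf2r there. The Airn promoter held 1 summit, 0.005 kb from a TSS, at position 12741379 of chromosome 17. It was weak, with a signal of 24.34 in replicate 1 and 30.54 in replicate 2, and had no motif. Its surroundings had 56.3% GC and 0.509 of the predicted CpGs, under the CpG criterion. The most upstream Igf2r TSS, at 12769664, had none within 1 kb: its nearest summit on the upstream side was at -4.412 kb with an optimal signal of 27.64.

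The strong summits of this domain lay elsewhere. The tallest was in an Airn intron, 69.343 kb from the most upstream Airn TSS and beyond the 5' end of Igf2r, with a signal of 218.9 in replicate 1 and 227.9 in replicate 2. Its motif score, 20.07, was the highest of all 53 summits. Within Igf2r the strongest, at 55.288 kb from the most upstream TSS, had a signal of 76.01 in replicate 1 and 98.77 in replicate 2. Toward the 3' end of Igf2r, 2 summits in coding sequence lay within 1 kb of an annotated downstream start at 12701279. The summit 0.765 kb from that start had a signal of 68.31 in replicate 1 and 55.31 in replicate 2, and that at 0.042 kb had 29.6 in replicate 1 and 23.72 in replicate 2. Neither was called a motif, though the score at the summit 0.765 kb from the start, 9.12, lay just under the threshold. The Airn summit at 52.467 kb ranked 78811 in replicate 1 and 59754 in replicate 2, and no conservative summit lay on the same base. The conservative list held 12 summits in the Airn window, against 10 in the optimal list.

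Grb10 encodes an adaptor protein that binds insulin and insulin-like growth factor receptors and restrains growth. It is expressed from the maternal chromosome in most tissues and from the paternal one in neurons. Its strongest summit lay 65.101 kb from the most upstream TSS, in an intron, with a signal of 224.3 in replicate 1 and 217.4 in replicate 2. A second one, 63.589 kb from that TSS, had a signal of 123.8 in replicate 1 and 123.6 in replicate 2, and both held motifs on the minus strand.

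Signal differed between the Grb10 promoters in both replicates. The downstream TSS, at 12026324 of chromosome 11, had a CpG-rich summit 0.426 kb inside the transcript, with a signal of 151.4 in replicate 1 and 162.3 in replicate 2. Its motif is given because it was the strongest at a TSS of this gene and held 3 CpGs.
Grb10, 5' untranslated region, chr11:12025862-12025880, plus strand: agactTCGCCACACGGGGTCGCTGcgtgc
At the upstream promoters the summits were weaker and had no motif. The CpG-rich one 0.184 kb from the TSS at 12037401 had a signal of 20.96 in replicate 1 and 18.21 in replicate 2, and that at -0.677 kb from the TSS at 12038683 had 31.32 in replicate 1 and 30.51 in replicate 2. The downstream TSS had the higher signal in each replicate.

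Gnas encodes the stimulatory G protein alpha subunit, and its locus is known for alternative first exons that are imprinted in opposite directions, the most upstream being that of the Nesp protein, and for the antisense RNA Nespas. Of the 10 summits, 5 lay within 1 kb of a Gnas TSS and 7 were CpG-rich, so Gnas alone held 7 of the 14 CpG-rich summits at these genes. The 10 are described in 3 groups along the locus, which were not drawn by spacing alone.

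The most upstream Gnas promoter, at 174284320 of chromosome 2, had a summit at -0.147 kb with a signal of 84.91 in replicate 1 and 95.65 in replicate 2. At the next TSS with a summit beside it, at 174297859, the summit at -0.359 kb had a signal of 72.92 in replicate 1 and 83.83 in replicate 2. Both were CpG-rich and had minus-strand motifs, as had a weaker summit near the start of Nespas with a signal of 28.26 in replicate 1 and 31.8 in replicate 2. The remaining summit of this group, at position 174296315 and also near the start of Nespas, was CpG-rich but had no motif. Its signal was 12.23 in replicate 1 and 21.24 in replicate 2. The 250 bases before the most upstream TSS (RefSeq, GRCm38.p6, the assembly of mm10, chr2:174284070-174284319, plus strand) show where the site stands, with the motif of the summit in capitals; here it reads on the plus strand, so the capitals are the reverse complement of the motif.
Gnas promoter: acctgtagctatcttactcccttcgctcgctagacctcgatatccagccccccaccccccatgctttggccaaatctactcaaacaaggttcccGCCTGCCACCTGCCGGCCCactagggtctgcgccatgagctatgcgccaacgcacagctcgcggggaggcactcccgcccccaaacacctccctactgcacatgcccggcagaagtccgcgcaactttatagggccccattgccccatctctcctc
The site held 1 CpG.

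The middle group lay in an intron, 23.8 to 27.998 kb from the most upstream TSS, and had the strongest peaks of the locus. The strongest had a signal of 153.3 in replicate 1 and 184.0 in replicate 2, and its neighbour at 26.743 kb had 128.0 in replicate 1 and 137.6 in replicate 2. All 3 held plus-strand motifs and none was CpG-rich. The downstream group, at the promoter of the main Gnas transcripts, was weak: the summit at -0.317 kb from the TSS at 174330006 had a signal of 38.13 in replicate 1 and 37.57 in replicate 2. That at -0.982 kb had 16.28 in replicate 1 and 13.98 in replicate 2, and that 0.617 kb downstream of the TSS at 174330287 had 15.5 in replicate 1 and 19.07 in replicate 2. All 3 of these were CpG-rich and only the last held a motif. Read along the chromosome, the 7 motifs of Gnas were minus, minus, minus, plus, plus, plus and plus. The only change of strand fell between the summits at 13.18 and 23.8 kb from the most upstream TSS. At the other genes with 3 or more motifs the strands were plus, plus, minus at Plagl1; minus, minus, plus, minus at Grb10; plus, plus, minus, plus at Airn; and minus, minus, plus at Peg3.

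Rasgrf1 encodes an exchange factor that activates Ras, is known mainly for its roles in brain and postnatal growth, and is controlled by a methylated region upstream of its promoter at which CTCF binding has been described. No other of the 10 genes had so low a maximum: the 5 optimal signals ran from 23.2 to 73.72, with a median of 50.32 (that of Airn was 40.17), none above the median of the list, and none lay within 1 kb of a TSS. The strongest, 64.056 kb inside the gene, had a signal of 33.53 in replicate 1 and 38.29 in replicate 2. The summit nearest to a TSS, at 7.712 kb, had a signal of 12.9 in replicate 1 and 10.27 in replicate 2 and ranked 75837 in replicate 2, outside the strongest 73465. The summit in coding sequence at 66.825 kb scored 9.17, just under the motif threshold.

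Upstream of Rasgrf1, between 20 and 50 kb from the TSS, neither the optimal nor the conservative list held a summit. The nearest optimal summit on that side was 82.477 kb away, with a signal of 148.1 and a motif. The list made from the pooled reads held a weak peak at -30.055 kb with a signal of 8.329 and rank 137480 of 300000. The replicate lists held one at -30.054 kb (replicate 1, signal 3.916) and at -30.101 kb (replicate 2, signal 3.464), and none of these 3 had a motif. A second pooled peak, at -31.993 kb with a signal of 6.544, did hold one, and in the replicate lists it had a counterpart in replicate 1 (signal 3.461) and none in replicate 2. Another, at -40.472 kb with a signal of 4.633 and no motif, had a counterpart in replicate 2 (signal 3.017) and none in replicate 1. Read depth is not given in the lists, so whether such a peak lies above background was not tested.

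The CTCF motif was found at 27 of the 53 summits, 50.9% (95% Wilson interval 37.9 to 63.9, covering counting error only, and too narrow where summits of a gene are not independent). Among all optimal summits on chromosomes 1 to 19 and X the share was 72.4%, and among those not used to train the matrix it was 70.8%. In the window of any annotated gene, drawn by the same rule, it was 71.3%. Above the median signal of the optimal list, 17 of 23 summits at these genes had a motif (73.9%, interval 53.5 to 87.5), against 85.7% of all optimal summits above it, a share that the interval holds. Below it 10 of 30 did (33.3%, interval 19.2 to 51.2), against 59.0%, which lies outside the interval. By distance, 7 of 19 summits within 1 kb of any TSS had a motif (36.8%, interval 19.1 to 59.0), against 51.0% of all such optimal summits, and 20 of 34 farther away had one (58.8%, interval 42.2 to 73.6), against 78.3%. By sequence, 7 of 14 CpG-rich summits had a motif (50%, interval 26.8 to 73.2), against 36.3% of all CpG-rich optimal summits. The interval holds that share. Of the other 39 summits 20 had one (51.3%, interval 36.2 to 66.1), against 76.8%, which lies outside the interval. Where a motif was found it was no weaker: the median score was 15.9, against 15.5 over all optimal summits with a motif. The strands were near balance, with 13 of 27 motifs on the plus strand.

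Many of the promoter and CpG-rich summits at these genes were at Gnas. Within 1 kb of a TSS of any gene lay 19 of the 53 (35.8%, interval 24.3 to 49.3), against 21.7% of all optimal summits. Since the summits were chosen for lying in or near genes, the closer background is the optimal summits in the window of any annotated gene, of which 24.5% lay that near a TSS. CpG-rich sequence surrounded 14 of the 53 (26.4%, interval 16.4 to 39.6), against 10.8% of all optimal summits and 12.1% of those in the window of a gene, and 13 of these 14 were within 1 kb of a TSS. Gnas supplied 7 of the 14. At the other 9 genes 7 of 43 summits were CpG-rich (16.3%, interval 8.12 to 30.0) and 12 were within 1 kb of a TSS (27.9%, interval 16.7 to 42.7), and both intervals hold the share in the window of any gene. A summit within 1 kb of the gene's own TSS was present at 8 of the 10 genes, all but Plagl1 and Rasgrf1, whereas 45.7% of protein-coding genes had one. The 10 genes have a median of 5.0 annotated TSSs and protein-coding genes a median of 3.0, and the part of this in the difference was not tested. A repeat-masked base lay under 6 summits (11.3%, interval 5.29 to 22.6), against 21.6% of all optimal summits and 21.9% of those in the window of a gene.

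Of the 27 motif sites, 10 contained a CpG (37.0%, interval 21.5 to 55.8), against 36.5% of motif sites at all optimal summits. The CpGs were not spread evenly. Of the 7 sites within 1 kb of a TSS, 6 had a CpG (85.7%, interval 48.7 to 97.4), against 56.3% of such sites in the whole list, and of the 20 farther away 4 did (20%, interval 8.07 to 41.6), against 32.9%. The 6 promoter sites were those of the downstream Grb10 promoter, the pair at Peg13, and 3 at the upstream promoters of Gnas and Nespas. Intragenic sites with a CpG were found at Plagl1, Grb10, Peg3 and Gnas.

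**Figure D3:**
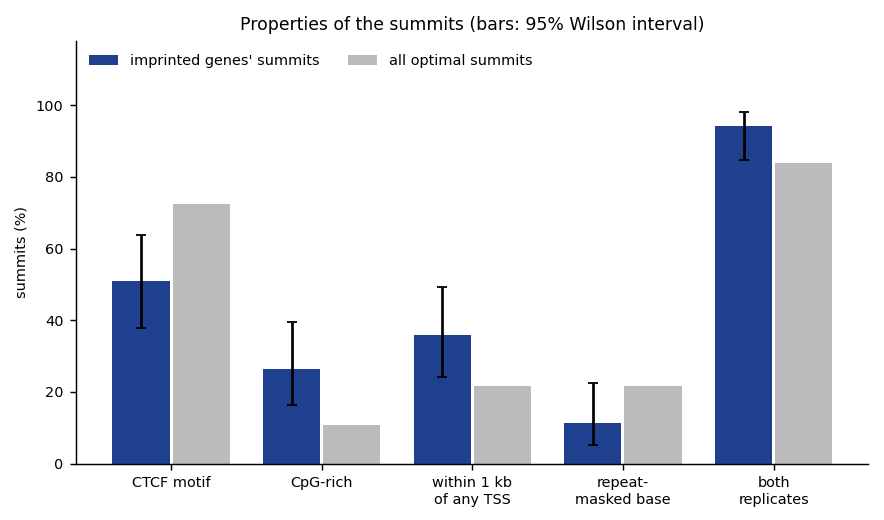
Share in percent of the 53 summits at the imprinted genes (dark bars, with 95% Wilson intervals) and of all optimal summits (light bars) with each property. The dark bar is lower for the CTCF motif (50.9% against 72.4%) and higher for CpG-rich sequence (26.4% against 10.8%) and for a TSS within 1 kb (35.8% against 21.7%); all optimal summits include those far from genes, and Gnas supplies 7 of the 14 CpG-rich summits.

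Nearly all of these summits recurred in both replicates. For 50 of the 53 (94.3%, interval 84.6 to 98.1) the strongest 73465 peaks of each replicate list held a summit within 100 bases. The share over all optimal summits was 83.8%. In the conservative list only a summit on the same base counted as a match. By that rule 51 had one (96.2%), against 87.1% of all optimal summits, and a peak with a shifted summit counts as missing. The exceptions in the replicate match were the weaker Mest summit, the Airn summit at 52.467 kb and the Rasgrf1 summit at 7.712 kb. Of these, the Mest and the Airn summit were the ones without a conservative summit on the same base. In the full lists all 53 had a match in each replicate, at a median of 3.0 bases in replicate 1 and 6.0 bases in replicate 2 from the optimal summit. Across the 53 summits, which share their libraries, the signals of the replicates had a Spearman rho of 0.952. The optimal list was made from both replicates, so this likeness, and the recurrence of the summits, was in part set by how it was made. Which sets of reads its IDR threshold compared was not given.

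**Figure D4:**
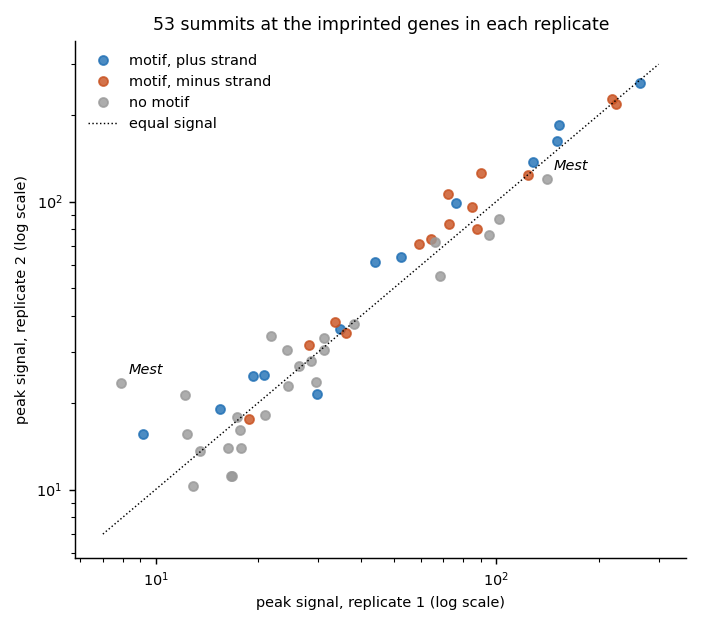
Peak signal of the 53 summits in replicate 1 (x axis) and replicate 2 (y axis), both log scale in the authors' units, coloured by motif and its genome strand; the dotted line marks equal signal. The points follow the line, and the weaker Mest summit, at 7.92 in replicate 1 and 23.35 in replicate 2, lies farthest above it.

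Genes beside the 10 in their domains were read in the same way. Of 28 neighbours, 24 had an optimal summit in their window, and at 6 of them at least 1 was a summit already counted for an imprinted gene. Under the same rule 68.1% of all annotated genes and 82.3% of protein-coding genes had a summit, so the neighbour count is near the background. It was not tested against these shares. The neighbours without an optimal summit were Slc22a2, Cep41 beside Mest, and Zfp264 and Zim3 in the Peg3 domain. Slc22a2 encodes an organic cation transporter and is imprinted with Igf2r in placenta. In the conservative list Zfp264 and Zim3 each had 1 summit in their window, and Slc22a2 and Cep41 had none. The strongest neighbouring summit was in Trappc9, the host of Peg13, with an optimal signal of 560.0 at position 73023089 of chromosome 15. The strongest at Peg13 itself had 210.7. These maxima come from unlike windows: that of Trappc9 was 491.6 kb long with 15 summits, and that of Peg13 40.0 kb with 3. In a list of 14 imprinted genes of other domains 13 had an optimal summit. The exception was Snrpn, which had 1 summit in the conservative list. This count, too, was not tested against the share of all genes.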

How the data were processed

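The authors deposited peak lists on mm10: 300000 peaks for each of the 2 replicates and for the pooled reads, and 73465 optimal and 70556 conservative peaks after IDR thresholding. For the aligner, peak caller, IDR threshold and control, the names and settings were not given in the sources used here. Signal values are those the authors deposited, of unstated normalization. The summit is the deposited start plus the deposited summit offset. The lists give no read counts, so depth per library is unknown and Wilson intervals cover counting of peaks only. Genes came from GENCODE M21. Members and gene lists were chosen with earlier results of these data known, and no test was made. All 10 members are named, each with its strongest summit, the summit nearest to a TSS and every summit within 1 kb of its TSSs. The motif matrix was trained on the 5000 strongest even-chromosome optimal peaks outside the windows of members and of the 14 compared genes, in 6 rounds with a pseudocount of 1. Its threshold, 9.32, was reached by 5% of windows 1 kb away. It was checked on simulated data. Alternatives were other lists, windows, thresholds and overlaps, and each replicate alone. Python 3.11.15, numpy 2.4.6, scipy 1.17.1, pysam 0.24.0, samtools 1.23.1 and matplotlib 3.10.9 were used.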

Additional observations from a re-analysis of the deposited data

How the results depend on the processing

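All 10 genes had a summit under every alternative except peaks above the median signal, where Rasgrf1 had none and 9 genes had one; with either replicate alone the count was 10 and 10. The 53 distinct summits became 23 when only peaks above the median signal were used and 33 with 10 kb around a TSS and no gene body. With either replicate alone there were 57 and 57. The motif share of 50.9% became 30.2% at the threshold that 1% of flanking windows reached, where that of all optimal summits was 40.5%. It became 73.9% among peaks above the median signal, and with either replicate alone it was 49.1% to 52.6%. The share in both replicates became 100% when all peaks of each replicate list were used. Of 80 counts for single genes under the alternatives 64 kept within 1.5 times the reported count and 16 did not. Of the 16, 3 were higher and 13 lower, and Mest had 4 summits with either replicate alone, against 2. The cause of these changes was not tested beyond what the stricter cut or window removes by construction. Read depth is unknown, so weak summits cannot be set against the reads behind them. No paired analysis was possible because there is 1 group.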
